A study of Danio rerio with 16 samples.

Results

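The question here was whether the difference between rad21 mutant and wild type zebrafish embryos changed between 24 and 48 hours post fertilisation (hpf), and for which genes. All 16 arrays of the series entered the comparison. For each probe set, the log2 difference between mutants and wild types at 24 hpf was taken from the difference at 48 hpf, a quantity called the interaction below. Of 15502 probe sets tested with limma, 225 were called at an adjusted p under 0.05 (1.45%), with 94 above 0 (0.606%) and 131 below 0 (0.845%). An interaction below 0 means that mutants stood lower against wild types at 48 hpf than they had at 24 hpf. The called probe sets were sorted into patterns by rules on the same fitted values, so pattern sizes and median values are descriptions with no test of their own.

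The 4 groups were wild type embryos at 24 hpf, embryos homozygous for the nz171 allele of rad21 at 24 hpf, and the same genotypes at 48 hpf. Each group had 4 arrays, and each array held RNA from a separate pool of 50 whole embryos freed from the chorion, with no treatment beyond the mutation. Expression was measured on Affymetrix zebrafish genome arrays and is given as log2 intensity, with the standard deviation (SD) or the standard error (SE) of the fit and n = 4 arrays per group throughout. A pool averages over its embryos and over all their tissues, so fewer cells of a type and less RNA per cell cannot be told apart.

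Rad21 is the kleisin subunit of cohesin, the protein ring that holds sister chromatids together until anaphase and that also extrudes and anchors chromatin loops. Through loops that bring enhancers and promoters together or keep them apart, cohesin takes part in setting which genes are on in which tissue. In zebrafish, the second day of development is when circulation is established, fin folds grow, the lens fills with crystallins, muscle fibres mature and many neurons differentiate. The genes of these programmes were therefore measured while they were being switched on or off.

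The targeted gene was checked first. The log2 intensity of rad21a was 10.38 ± 0.20 (SD) in wild types and 6.80 ± 0.20 in mutants at 24 hpf, and 10.24 ± 0.18 and 6.32 ± 0.39 at 48 hpf. Its difference did not pass the test for a change between the times (interaction -0.34 ± 0.24 SE, adjusted p = 0.635). Probe sets for 5 sequences that embryos do not carry had log2 intensities from 2.77 to 7.22 with a median of 4.66, used below as a rough mark of background, and a change that starts or ends below it was measured only in part. The arrays least like the rest of their groups were wild type replicate 1 at 24 hpf and, at 48 hpf, wild type replicate 3 and mutant replicate 4. Without these 3 arrays 265 probe sets were called. The 3' to 5' log2 difference of the actin control probe sets exceeded the wild type value in mutants by 0.616 at 24 hpf and by 0.949 at 48 hpf, and that of GAPDH by 0.124 and 0.0193.

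Most of the called probe sets differed between genotypes late. Of the 225, 164 were called for genotype at 48 hpf alone, 27 at 24 hpf alone, 33 at both times and 1 at neither. Over all probe sets, 7.35% were called for genotype at 24 hpf and 15.6% at 48 hpf. The called interactions had a median size of 0.99 on the log2 scale, the smallest was 0.51, and 112 reached 1. The median interaction of all probe sets was 0.03. A symbol was known for 172 of the called probe sets, which stood for 164 genes, and 53 had none or several.

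The count rested in part on single arrays. It fell to 125 without mutant replicate 3 at 24 hpf, to 144 without wild type replicate 3 at 24 hpf and to 125 without wild type replicate 1 at 48 hpf. Leaving out any other single array kept it within a factor of 1.5.

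The change from 24 to 48 hpf was smaller in mutants. Over all probe sets, 30.3% were called for time in wild types and 23.7% in mutants. Among 541 probe sets that rose by at least 1 log2 unit in wild types and were called, the mutant change had a median of 73.2% of the wild type change (quartiles 50.2% and 94.9%), and 133 were under 50%. Among 245 that fell by as much, it had a median of 69.3% (quartiles 56.8% and 84.0%). These quartiles run over probe sets. Over the 4 mutant arrays at 48 hpf the share had an SD of 16.8 percentage points for rising and 15.3 for falling probe sets. Choosing probe sets by their change in wild types favours large wild type values, so the reverse choice was made too. Among 433 probe sets that rose by at least 1 log2 unit in mutants, the wild type change had a median of 97.2% of the mutant change, and among 140 that fell it was 106%. Across all 15502 probe sets the changes in the 2 genotypes, which share no array, had a Pearson correlation of 0.82.

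**Figure D1:**
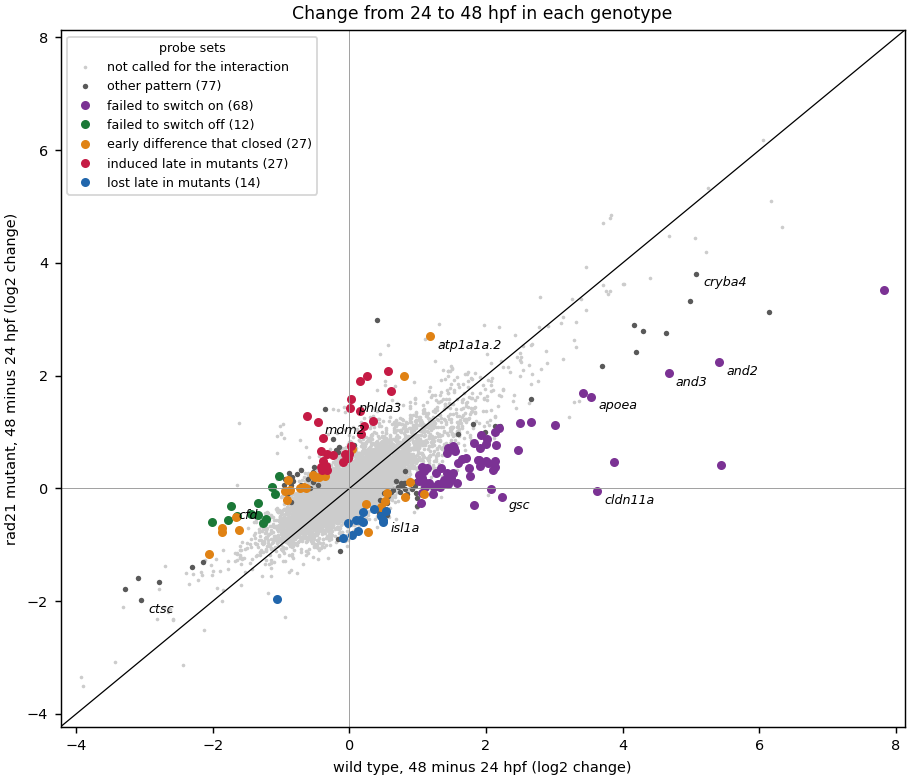
Log2 change from 24 to 48 hpf in wild types (horizontal axis) and in rad21 mutants (vertical axis), 1 point per probe set, with the 225 probe sets called for the interaction coloured by pattern and the line of equal change in black. Probe sets of the pattern failed to switch on lie to the right, below the line, led by 2 unnamed probe sets, cldn11a, a gene with a clone name only, and2 and and3, and the late inductions lie above the line near a wild type change of 0.

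The most frequent named pattern was failure to switch on, with 68 of the 225 probe sets. These rose by at least 1 log2 unit in wild types, changed by less than 50% of that in mutants, and were called lower in mutants at 48 hpf. The median change was 1.68 in wild types and 0.38 in mutants. In 7 of the 68 the mutant change was 0 or opposite in sign to the wild type rise. The pattern name therefore also covers smaller rises in mutants, as in and2 and and3. In 23 of the 68 the mutant mean at 48 hpf was still below the background mark, against 1 for the wild type mean. The wild type mean at 24 hpf lay below it in 32 of the 68, so those rises were measured only in part. Of the 68, 12 were already called for genotype at 24 hpf (7.35% of all probe sets). The members just inside the 50% limit were stmn1b at 49.7% and cox4i1l at 49.3%, and those just outside were f5 at 50.4% and hgd at 52.0%.

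The largest such difference of a named gene was in cldn11a, a claudin of tight junctions. Wild type arrays had a log2 intensity of 3.72, 3.89, 3.89 and 3.83 at 24 hpf and of 7.74, 7.35, 7.20 and 7.57 at 48 hpf. In mutants it was 3.83, 3.55, 3.73 and 3.47 at 24 hpf and 3.65, 3.67, 3.52 and 3.57 at 48 hpf. All 12 arrays other than the wild types at 48 hpf lay below the background mark, and the genotypes were far apart at 48 hpf. The gene rose 12.4-fold in wild types, and its change in mutants was -0.04 on the log2 scale (interaction -3.67 ± 0.16 SE, adjusted p = 2.06e-10).

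The actinodins and2 and and3 encode fibre proteins of actinotrichia, the fine rods that stiffen the embryonic fin fold. Log2 intensity of and2 was 4.78, 4.91, 4.44 and 4.40 in wild types at 24 hpf and 9.999, 10.222, 9.519 and 10.435 at 48 hpf. In mutants it was 4.34, 4.21, 4.35 and 4.22, then 7.08, 5.66, 5.64 and 7.68. Every mutant array at 48 hpf thus lay above every array at 24 hpf and below every wild type array at 48 hpf, and the mutant values spread widely. The rise was 42.6-fold in wild types and 4.70-fold in mutants (interaction -3.18 ± 0.49 SE, adjusted p = 0.00263). At 24 hpf the mutant arrays lay below the background mark and the wild type arrays on both sides of it, so the rises were measured only in part.

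Log2 intensity of and3 lay between 3.73 and 4.32 in all 8 arrays at 24 hpf, below the background mark, so its rises were measured only in part. Wild types at 48 hpf had 9.07, 8.73, 8.59 and 9.10, and mutants had 6.22, 5.97, 5.42 and 6.60. The genotypes overlapped at 24 hpf and did not at 48 hpf, and the rise was 25.5-fold against 4.14-fold (interaction -2.62 ± 0.27 SE, adjusted p = 5.44e-05). The third family member, and1, read -1.03 ± 0.47 (SE) and was not called (adjusted p = 0.396). It was called without the 3 arrays least like their groups (-1.16, adjusted p = 0.00406). Of 18 measured fin fold genes, and2 and and3 were the called members (0.845% of all probe sets were called below 0). The list had a median interaction of -0.24 against 0.04 over all 8793 genes.

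Further genes of this pattern came from several tissues. The homeobox gene gsc, known from the gastrula organizer and later from the pharyngeal arches, rose by 2.23 in wild types and read -0.15 in mutants (interaction -2.38 ± 0.19 SE, adjusted p = 1.98e-06). Interactions were -2.08 for the chemokine ccl25b, -1.92 for the lipid carrier apoea and -1.77 for lctla, which encodes a lactase-like protein. They were -1.74 for cox4i1l, which encodes a subunit of cytochrome c oxidase, and -1.55 for calb2a, which encodes the neuronal calcium buffer calretinin. The fenestral diaphragm gene plvapb of endothelium read -1.52 and aspn, a small proteoglycan of connective tissue, also -1.52, although another probe set of aspn read -0.31 and was not called. For gsc, ccl25b, lctla and aspn, wild type means at 24 hpf and both mutant means lay below the background mark, and wild type means at 48 hpf above it. In contrast, mutant means of apoea, cox4i1l, plvapb and calb2a did not lie below it.

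Some genes of the red blood cell list met the rule for failure to switch on. This held for 4 of the 5 called ones, all but nt5c2l1, which met none of the pattern rules. Of the 4, tmod4 was called higher in mutants at 24 hpf (0.47), with means of 8.21 in wild types and 8.68 in mutants. For cahz, mutants were already called lower at 24 hpf (-1.41). Of 27 measured erythroid genes, 5 had an interaction below 0 (0.845% of all probe sets) and 0 above 0 that passed in limma (9 below 0 and 1 above 0 at an unadjusted p under 0.05). Their values were -1.64 for cahz, the carbonic anhydrase of red cells, -1.30 for nt5c2l1, which encodes a nucleotidase, and -1.23 for epb41b, which encodes a protein of the membrane skeleton. The remaining values were -1.38 for alas2, which encodes the enzyme of the first step of haem synthesis and which was named after its values were seen to complete the count, and -1.14 for tmod4, an actin-capping tropomodulin also counted among muscle genes. At 24 hpf 3 of the 27 were called lower in mutants (4.09% of all probe sets) and at 48 hpf 12 (6.81%). The list rose in part in wild types, where 12 were called higher at 48 hpf (12.6% of all probe sets), against 6 in mutants (11% of all probe sets). The median interaction of the list was -0.26. For cahz any of 13 single omissions ended the call (adjusted p up to 0.0767), and for alas2 any of 14 (up to 0.102). The call of cahz also ended without the 3 arrays named above (adjusted p = 0.101), and that of alas2 likewise (0.0524), and with an offset of 16 before log2 (0.0654).

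Among lens genes, 3 had a smaller rise in mutants. The intermediate filament gene bfsp2, which builds the beaded filaments of lens fibre cells, rose by 1.75 in wild types and read 0.37 in mutants (interaction -1.38 ± 0.21 SE, adjusted p = 0.00263). Its wild type mean at 24 hpf and both mutant means lay below the background mark. The crystallins crygmxl2 and cryba4 rose by 4.99 and 5.08 in wild types and by 3.32 and 3.81 in mutants (interactions -1.66 ± 0.20 and -1.27 ± 0.22 SE, adjusted p = 0.000345 and 0.00687). The mutants had reached more than 50% of the wild type change in both, so they fell outside the pattern. Of the 2 crystallins, cryba4 was already called lower in mutants at 24 hpf (-0.88). For crygmxl2 both means at 24 hpf lay below the background mark, so its rises were measured only in part. Of 16 measured lens genes, these 3 were called lower (0.845% of all probe sets) and 0 higher in limma (1 higher at an unadjusted p under 0.05). The list had a median interaction of -0.28. Of the 16, 6 rose over time in wild types (12.6% of all probe sets) and 3 in mutants (11%).

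Other tissues contributed single genes. Those that rose in wild types and changed by less than 50% of that in mutants included cdh11, a mesenchymal cadherin (-1.30, with a further probe set at -0.94 that was also called), and the keratin krt15 (-1.22). They included cpa5, a pancreatic carboxypeptidase (-1.37), tfap2b, a transcription factor of neural crest and neurons (-0.77), and stmn1b, a tubulin-binding stathmin (-0.73), of which another probe set read -0.47 and missed the threshold. In the list of differentiating neurons, 4 of 49 genes were called lower (0.845% of all probe sets) and 0 higher in limma (2 higher at an unadjusted p under 0.05). However, 33 rose over time in wild types and 30 in mutants (12.6% and 11% of all probe sets). These 4 were calb2a, stmn1b, isl1a and zc4h2 (-0.68), and the list median was -0.14. Of 55 genes of liver, yolk and plasma 3 were called, all below 0 (0.845% of all probe sets). They were the liver enzyme hgd of tyrosine breakdown (-1.02), the clotting factor f5 (-1.09) and the sulfotransferase sult1st1 (-0.69). Any of 9, 9 and 6 single omissions ended the calls of zc4h2, f5 and sult1st1 (adjusted p up to 0.0704, 0.0702 and 0.0636), and the trend and robust prior that of sult1st1 (0.0501).

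Called genes of the neutrophil and macrophage list went both ways. The lysozyme lyz rose by 4.29 in wild types and 2.79 in mutants (interaction -1.51 ± 0.33 SE, adjusted p = 0.0303), and the neutrophil peroxidase mpx by 1.34 in wild types against 0.36 in mutants (-0.98). Of these, lyz was already called lower in mutants at 24 hpf (-1.29), where its mutant mean of 4.50 lay below the background mark. By contrast, the leukocyte plastin lcp1 rose by 1.201 in mutants and read 0.34 in wild types (interaction 0.86). The protease ctsc fell by 3.05 in wild types and by 1.98 in mutants (interaction 1.07). In wild types ctsc was the 1 gene of the list called as falling over time (17.7% of all probe sets), while 9 rose (12.6%). Other probe sets of mpx read 0.19 and -0.01, neither called, and -1.58, called. The genes lyz, mpx, lcp1 and ctsc were the 4 called of 20 neutrophil and macrophage genes, with a list median of 0.04. Of them 2 were above 0 (0.606% of all probe sets) and 2 below 0 (0.845%). The call of mpx ended when wild type replicate 1 at 48 hpf was left out (0.0588 after adjustment), or mutant replicate 3 at 24 hpf (0.0567), that of lyz without any of 8 arrays (up to 0.0658) and that of lcp1 without any of 13 (up to 0.0985). The call of lcp1 also ended with cyclic loess scaling (0.0544).

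Muscle genes were split as well. The calcium pump atp2a1l rose by 4.64 in wild types and 2.76 in mutants (interaction -1.87), the parvalbumin pvalb5, a calcium buffer, by 4.198 and 2.42 (-1.78), and myoglobin, mb, by 1.65 and 0.52 (-1.13). Of these, pvalb5 was not in the muscle list. At 24 hpf the means of atp2a1l and pvalb5 lay below the background mark in both genotypes, so their rises were measured only in part. On the other side, the troponin genes tnni2b.1 and tnnt2c fell by 1.13 and 1.64 in wild types and read 0.02 and -0.49 in mutants (interactions 1.16 and 1.15). Of 61 measured skeletal muscle genes, these 2 troponin genes were called higher (0.606% of all probe sets). The 3 genes atp2a1l, mb and tmod4 (-1.14) were called lower (0.845% of all probe sets), and the list median was 0.03. Over time 37 rose in wild types and 39 in mutants (12.6% and 11% of all probe sets). The actin 3' to 5' log2 difference was 3.07 in wild types and 3.69 in mutants at 24 hpf, and 2.62 and 3.56 at 48 hpf, a change of the genotype difference of 0.332, and its part in these results was not tested. Leaving out any of 13, 12 and 10 arrays ended the calls of atp2a1l, mb and tnni2b.1 (adjusted p up to 0.108, 0.0751 and 0.0684), an offset of 16 (0.0664) and the trend and robust prior (0.0707) ended that of atp2a1l, while those of pvalb5, tmod4 and tnnt2c held under each of the 16 omissions.

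**Figure D2:**
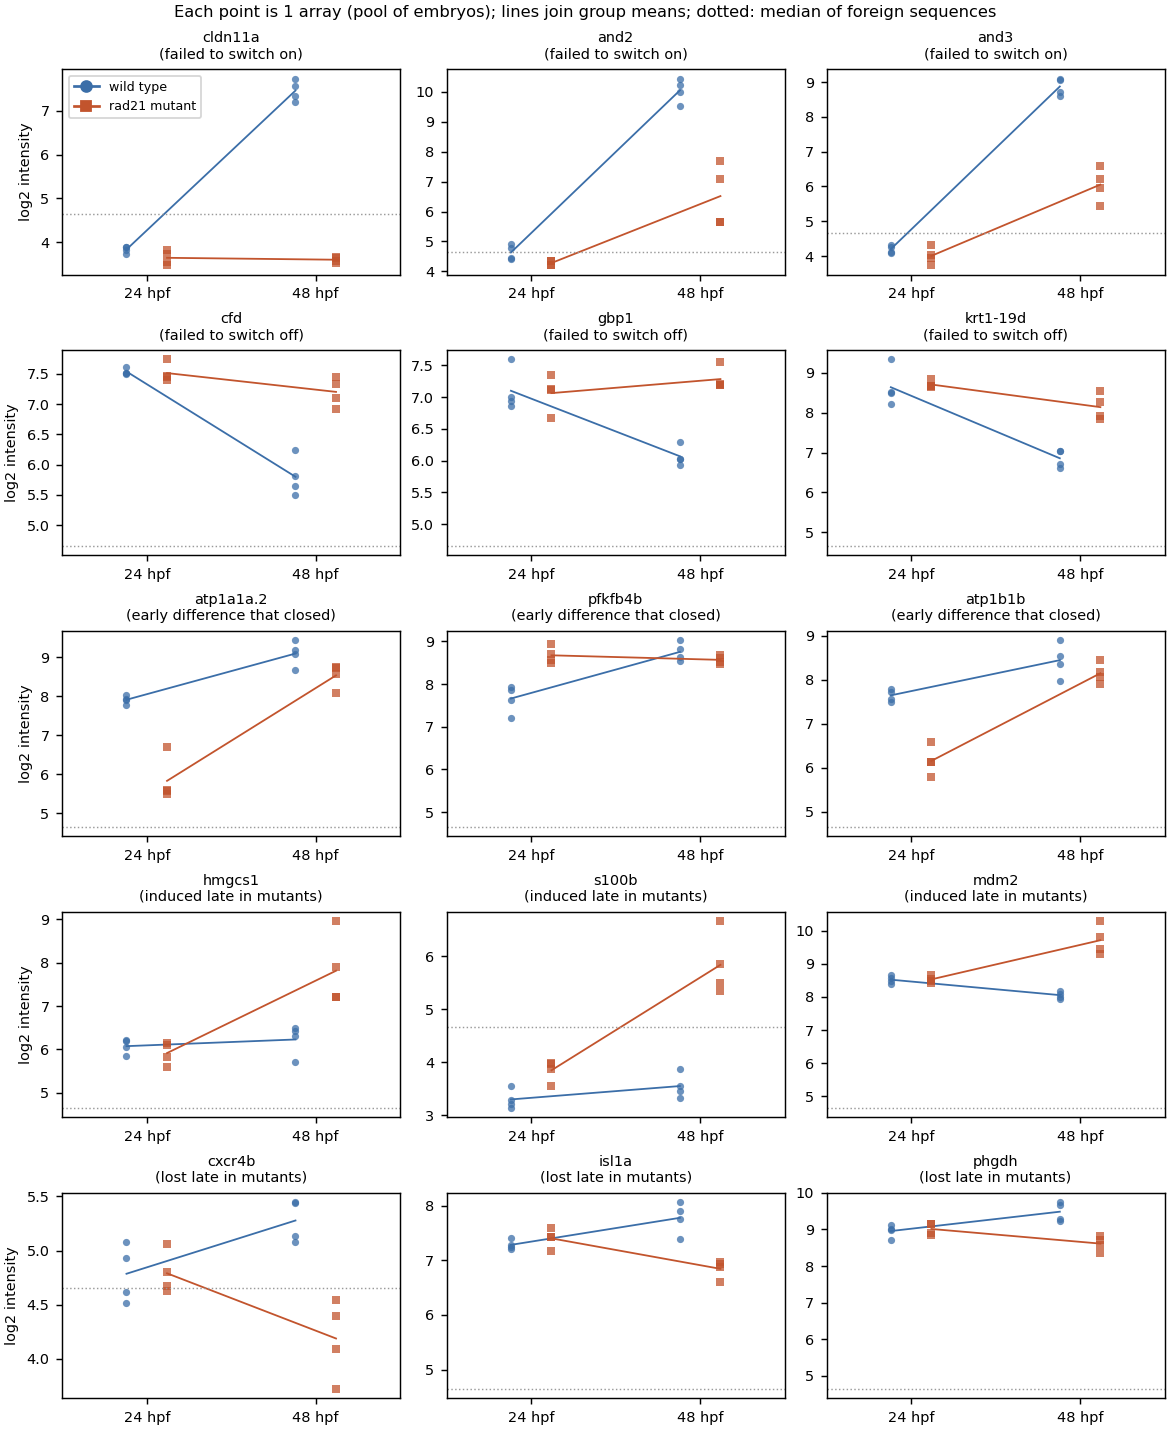
Log2 intensity of the 3 genes with the largest interaction in each pattern, with 1 point per array (4 per group), wild types in blue circles, rad21 mutants in orange squares, lines joining group means and the background mark of 4.66 dotted. In the top row wild types rise steeply and mutants do not or do so less; in the row of late inductions the mutants at 48 hpf stand above all other arrays.

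Failure to switch off was less frequent, with 12 probe sets for 8 named genes. These fell by at least 1 log2 unit in wild types and by less than 50% of that in mutants, and were called higher in mutants at 48 hpf. The complement protease cfd, factor D of the alternative pathway, read 7.62, 7.52, 7.50 and 7.51 in wild types, against 7.39, 7.74, 7.45 and 7.46 in mutants at 24 hpf. Readings at 48 hpf were 5.49, 5.82, 5.65 and 6.24 in wild types, against 7.45, 7.32, 7.10 and 6.92 in mutants. The groups overlapped at 24 hpf, and at 48 hpf every mutant array was higher than every wild type array. The fall was 3.33-fold in wild types, and mutants kept within 1.24-fold (interaction 1.43 ± 0.20 SE, adjusted p = 0.00167).

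The interferon-induced GTPase gene gbp1 read 7.59, 6.87, 7.01 and 6.93 in wild types at 24 hpf and 6.02, 5.92, 6.30 and 6.03 at 48 hpf. In mutants it read 7.35, 6.67, 7.11 and 7.12, then 7.18, 7.19, 7.55 and 7.20. Again the groups overlapped at 24 hpf and separated at 48 hpf (interaction 1.25 ± 0.23 SE, adjusted p = 0.00968). In the list of innate immune and interferon genes, cfd was the 1 called of 23 (0.606% of all probe sets were called above 0), and the median was 0.11. At 24 hpf 0 of the 23 were called in limma in either direction (0 at an unadjusted p under 0.05), and at 48 hpf 8 were higher (8.76% of all probe sets) and 1 lower.

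The keratin krt1-19d read 9.34, 8.50, 8.51 and 8.21 in wild types at 24 hpf and 7.04, 6.73, 6.62 and 7.04 at 48 hpf. In mutants it read 8.67, 8.86, 8.64 and 8.67, then 8.55, 8.26, 7.84 and 7.91. The mutant arrays at 48 hpf stood above those of wild types without overlap (interaction 1.21 ± 0.28 SE, adjusted p = 0.0399), and a further probe set read 1.43 and was called. The other named members were tnni2b.1 and tnnt2c, already given, rars1, an arginyl-tRNA synthetase (1.08), gtsf1, a factor of the piRNA pathway in mouse (0.99), and myl6, a light chain of non-muscle myosin (0.65). Any of 11 single omissions ended the call of krt1-19d (adjusted p up to 0.0852), and any of 14 that of myl6 (up to 0.0963). With an offset of 16 the value of krt1-19d had an adjusted p of 0.0668. The call of myl6 ended with centred arrays (0.0519), quantile scaling (0.0534), dim probe sets left out (0.0516) and without the 3 arrays least like their groups (0.0696).

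Late induction in mutants covered 27 probe sets for 22 genes. These did not differ by genotype at 24 hpf at the threshold, were called higher in mutants at 48 hpf, and rose from 24 to 48 hpf in mutants. The ubiquitin ligase gene mdm2, a p53 target that in turn restrains p53, read 8.67, 8.56, 8.47 and 8.39 in wild types, against 8.49, 8.53, 8.67 and 8.42 in mutants at 24 hpf. At 48 hpf the values were 8.091, 7.934, 8.193 and 8.002 in wild types, against 9.28, 9.46, 9.82 and 10.29 in mutants. The genotypes overlapped at 24 hpf and stood apart at 48 hpf, where mutants were 3.15-fold higher (interaction 1.65 ± 0.22 SE, adjusted p = 0.00106).

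Of the 32 gene lists, the p53 response had the most called interactions above 0 by count. The lists differ in size, sterol synthesis having 2 of 12, and were chosen with earlier results of these data known. Of the 27 measured genes of the p53 response 4 were called above 0 (0.606% of all probe sets). In limma 0 were called below 0 (1 below 0 at an unadjusted p under 0.05). Beside mdm2 they were phlda3, an inhibitor of Akt signalling (1.57 ± 0.23 SE, adjusted p = 0.00185), and the cell death inducers baxa (1.03 ± 0.23, adjusted p = 0.0299) and bbc3, which encodes Puma (0.88 ± 0.20, adjusted p = 0.0347). Of these bbc3 was already called higher at 24 hpf, by 0.60, and mdm2, phlda3 and baxa were not. The difference of phlda3 at 24 hpf was 0.47 (adjusted p = 0.0897). At 24 hpf 3 of the 27 were higher (3.26% of all probe sets) and 2 lower, and at 48 hpf 13 were higher (8.76% of all probe sets) and 3 lower (6.81%). The list had a median interaction of 0.44. Any of 8 single omissions ended the call of baxa (adjusted p up to 0.0645), and any of 10 that of bbc3 (up to 0.0763). That of bbc3 ended with cyclic loess scaling (0.0591), and that of baxa without the 3 arrays least like their groups (0.0532). Of 11 genes of the apoptosis machinery 0 were called by limma (1 above 0 and 0 below 0 at an unadjusted p under 0.05).

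Sterol synthesis genes were higher in mutants at 48 hpf. The gene of HMG-CoA synthase, hmgcs1, an early enzyme of the pathway, read 6.06, 6.18, 5.84 and 6.22 in wild types, against 5.60, 5.82, 6.15 and 6.10 in mutants at 24 hpf. The values at 48 hpf were 6.30, 6.42, 5.70 and 6.49 in wild types, against 7.21, 7.20, 7.89 and 8.96 in mutants. The mutant arrays at 48 hpf lay above all others, and mutant replicate 4 was the highest (interaction 1.74 ± 0.41 SE, adjusted p = 0.045). The lanosterol demethylase cyp51 had an interaction of 1.43 ± 0.22 (SE, adjusted p = 0.00276), although 3 other probe sets of the gene read -0.12, -0.03 and -0.29 and were not called.

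These were the 2 called of 12 measured sterol genes (0.606% of all probe sets were called above 0). All 12 had an interaction above 0, with a median of 0.59. At 24 hpf 0 of the 12 were called in limma (1 higher at an unadjusted p under 0.05), and at 48 hpf 10 were higher (8.76% of all probe sets) and 0 lower (0 lower at an unadjusted p under 0.05). From 24 to 48 hpf 8 rose in mutants (11% of all probe sets), while in wild types 1 rose (12.6%) and 2 fell (17.7%). Any of 13 single omissions ended the call of hmgcs1 (adjusted p up to 0.0915), as did cyclic loess scaling (0.0502) and an offset of 16 (0.0813).

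The calcium-binding protein gene s100b read 3.54, 3.14, 3.29 and 3.21 in wild types, against 3.56, 3.97, 3.86 and 3.99 in mutants at 24 hpf. Readings at 48 hpf were 3.54, 3.32, 3.45 and 3.88 in wild types, against 5.86, 5.49, 5.33 and 6.66 in mutants. All arrays other than the mutants at 48 hpf lay below the background mark (interaction 1.74 ± 0.30 SE, adjusted p = 0.00763). Below that mark, every mutant array at 24 hpf already read above every wild type array at 24 hpf. That difference was 0.55 and was not called (adjusted p = 0.144). Interactions between 0.79 and 1.11 were seen in rlbp1a, a retinaldehyde-binding protein of retinal support cells, the kinase vrk2, the lipid transfer protein pitpnaa, glb1l, lcp1, the cryptochrome cry1a and the actin regulator coro2aa. The calls of glb1l and coro2aa were lost under any of 9 and 11 single omissions (adjusted p up to 0.0796 and 0.0836) and without the 3 arrays least like their groups (0.0815 and 0.0546), and that of coro2aa also with centred arrays (0.0524).

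Late loss in mutants covered 14 probe sets for 9 genes, which were not called for genotype at 24 hpf, were called lower at 48 hpf and fell over time in mutants. The chemokine receptor cxcr4b, which guides migrating cells, read 5.08, 4.52, 4.62 and 4.94 in wild types, against 5.06, 4.80, 4.67 and 4.63 in mutants at 24 hpf. At 48 hpf the values were 5.44, 5.14, 5.45 and 5.08 in wild types, against 4.55, 4.40, 4.09 and 3.73 in mutants. The mutant arrays at 48 hpf were the lowest of the 16 with the exception of 1 wild type array at 24 hpf that read 4.52, and all 4 lay below the background mark (interaction -1.09 ± 0.24 SE, adjusted p = 0.0299).

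The LIM homeobox gene isl1a, a regulator of motor and sensory neurons and of endocrine cells, read 7.20, 7.24, 7.28 and 7.40 in wild types at 24 hpf and 7.91, 7.75, 8.07 and 7.38 at 48 hpf. In mutants it read 7.42, 7.59, 7.43 and 7.17, then 6.88, 6.92, 6.97 and 6.60. Each mutant array at 48 hpf lay below every other array (interaction -1.05 ± 0.19 SE, adjusted p = 0.00846), while another probe set read -0.44 and was not called.

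The serine synthesis gene phgdh read 9.11, 8.72, 9.02 and 8.98 in wild types at 24 hpf and 9.28, 9.67, 9.24 and 9.75 at 48 hpf. In mutants it read 9.15, 9.14, 8.92 and 8.85, then 8.81, 8.71, 8.57 and 8.37. The groups did not overlap at 48 hpf (interaction -0.93 ± 0.19 SE, adjusted p = 0.0202). The other genes were sox11a, a transcription factor of neural progenitors and neurons, sinhcafl (-0.81), cited4b (-0.79), the hypoxia-inducible factor epas1a (-0.73), the corepressor ctbp1l (-0.70) and hp1bp3, which binds heterochromatin protein (-0.58). The value of sox11a was -0.96 on a probe set other than its brightest, and the brightest was not of this pattern. This gene fell outside the naming rule and was added after its values were seen. For sinhcafl, cited4b, epas1a and ctbp1l, 3, 1, 2 and 1 other probe sets were not called. The calls of cxcr4b, sinhcafl, cited4b, epas1a, ctbp1l and hp1bp3 were each lost under 8 to 13 single omissions (highest adjusted p between 0.0668 and 0.0986), while those of isl1a and phgdh held under each of the 16 omissions. The trend and robust prior ended the calls of epas1a (0.0563) and ctbp1l (0.062), and leaving out the 3 arrays least like their groups those of sinhcafl (0.126) and hp1bp3 (0.0802). Quantile scaling ended that of sinhcafl as well (0.0577).

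**Figure D3:**
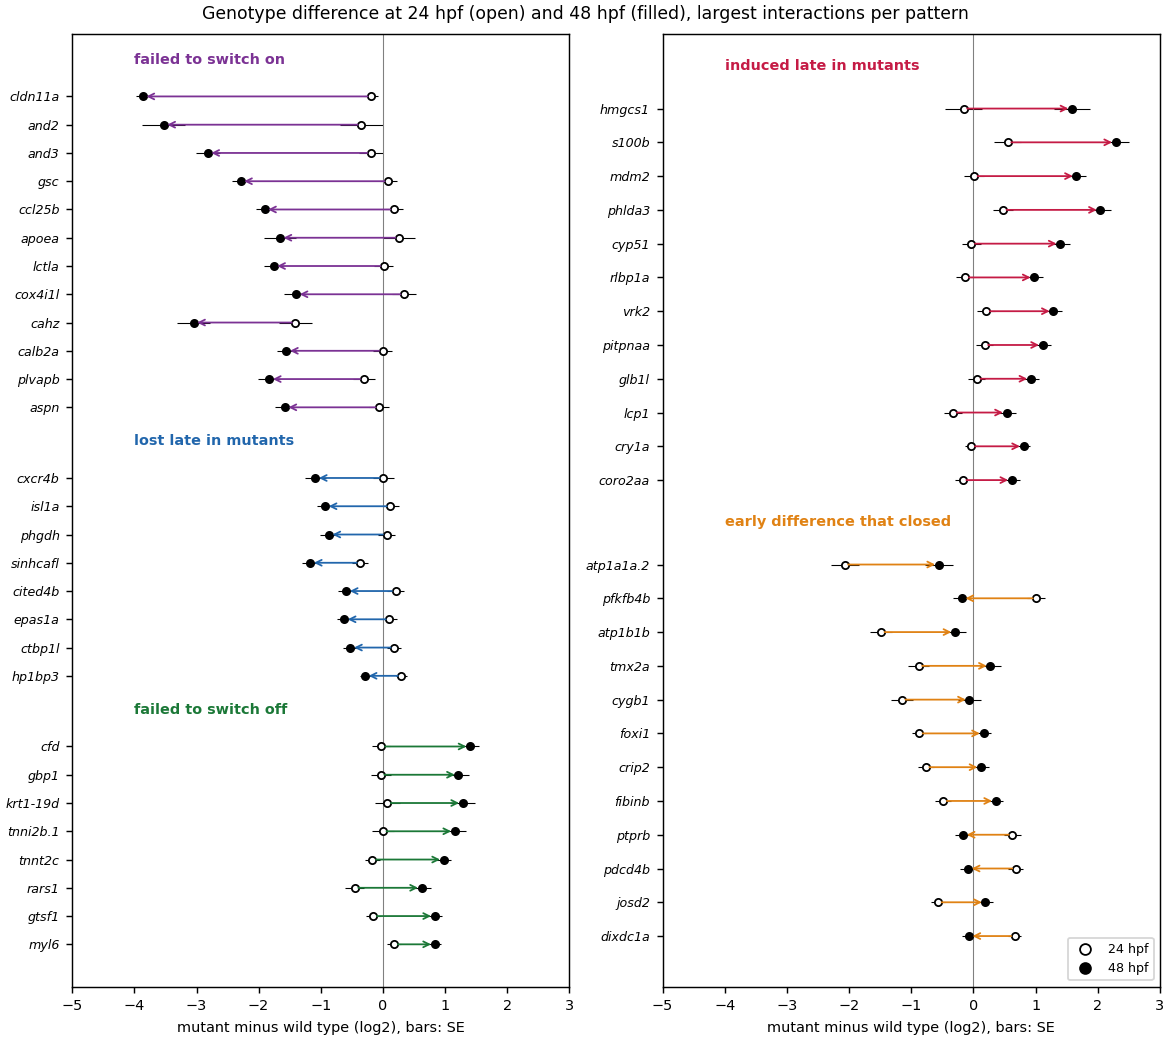
Log2 difference of mutants minus wild types at 24 hpf (open points) and 48 hpf (filled points) with SE bars, for up to 12 genes of each pattern with the largest interactions, joined by an arrow from 24 to 48 hpf. Genes that failed to switch on run from near 0, or from -1.41 for cahz, to as low as -3.86 for cldn11a. Early differences that closed run towards 0 or past it, as for fibinb from -0.49 to 0.36.

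Not every change was a late gain of a difference. An early difference that closed was seen in 27 probe sets for 22 genes, called for genotype at 24 hpf and not at 48 hpf. The sodium pump subunits atp1a1a.2 and atp1b1b, which drive ion uptake in the skin among other tissues, gave the largest closures from below. The catalytic subunit atp1a1a.2 read 7.91, 8.04, 7.76 and 7.92 in wild types, against 5.59, 5.49, 5.57 and 6.69 in mutants at 24 hpf. The values at 48 hpf were 9.19, 9.07, 8.68 and 9.43 in wild types, against 8.74, 8.09, 8.73 and 8.57 in mutants. Mutants were 4.21-fold lower at 24 hpf with no overlap (interaction 1.52 ± 0.32 SE, adjusted p = 0.0238). At 48 hpf the groups overlapped through the wild type array at 8.68. Mutants were then 1.47-fold lower, which was not called (adjusted p = 0.109), so the difference narrowed and was not shown to be gone.

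The partner subunit atp1b1b read 7.79, 7.73, 7.56 and 7.50 in wild types, against 6.12, 5.79, 6.12 and 6.59 in mutants at 24 hpf. Readings at 48 hpf were 8.55, 8.36, 7.97 and 8.89 in wild types, against 8.06, 7.91, 8.44 and 8.18 in mutants. Groups were apart at 24 hpf and overlapped at 48 hpf (interaction 1.19 ± 0.26 SE, adjusted p = 0.0275). The calls of both subunits were lost under any of 5 and 7 single omissions (adjusted p up to 0.0579 and 0.062) and without the 3 arrays least like their groups (0.0667 and 0.0725), and that of atp1b1b with an offset of 16 (0.052).

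The glycolytic regulator pfkfb4b went the other way. It read 7.21, 7.63, 7.94 and 7.85 in wild types, against 8.57, 8.48, 8.70 and 8.94 in mutants at 24 hpf, and 8.63, 8.81, 8.55 and 9.02 against 8.67, 8.52, 8.46 and 8.61 at 48 hpf. Mutants were higher without overlap at 24 hpf, and at 48 hpf the groups overlapped after a rise in wild types (interaction -1.20 ± 0.21 SE, adjusted p = 0.00711). Together with epas1a and egln1b (-0.82), pfkfb4b made up the 3 called of 29 hypoxia response genes, all below 0 (0.845% of all probe sets). The product of egln1b is an oxygen sensor that marks hypoxia-inducible factor for destruction. At an unadjusted p under 0.05, 3 of the 29 were above 0 and 5 below 0.

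Other early deficits that closed had interactions of 1.16 for tmx2a, of 1.09 for cygb1, a cytoglobin, of 1.04 for foxi1, a forkhead factor of the otic placode, of 0.89 for crip2 and of 0.84 for fibinb. They were 0.76 for the deubiquitinase josd2 and 0.63 for has2, a hyaluronan synthase needed in heart valve formation. All group means of has2 lay below the background mark. In all of these deficits wild types fell over time, with changes from -0.53 for josd2 to -2.06 for crip2. Mutants fell by less or were not called for time. At 48 hpf the cygb1 means, 4.69 in wild types and 4.63 in mutants, stood at about the background mark. Early excesses that closed were -0.79 for ptprb, a receptor phosphatase of blood vessels, -0.77 for pdcd4b, an inhibitor of translation, and -0.74 for dixdc1a. Another probe set of tmx2a read -0.02 and was not called, and a second one of cygb1 read 0.88 and was called.

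When wild type replicate 1 at 48 hpf was omitted, adjusted p-values were 0.0532 for crip2, 0.0502 for both fibinb and dixdc1a, and without mutant replicate 3 at 24 hpf it was 0.0564 for fibinb. The calls of cygb1, ptprb, pdcd4b, josd2 and has2 were each lost under 6 to 13 single omissions (highest adjusted p between 0.0651 and 0.106). That of cygb1 also ended with cyclic loess scaling (0.0509) and with centred arrays (0.0525), and that of ptprb with an offset of 16 (0.0569). Leaving out the 3 arrays least like their groups ended the calls of fibinb (0.0524), pdcd4b (0.0909) and josd2 (0.093).

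In 8 of the 33 probe sets called for genotype at both times the difference changed sign. Among them were tgfbi, a matrix protein induced by TGF-beta, tcn2, a carrier of vitamin B12, tmod4, mpped2 and ahcyl1, of which tcn2, mpped2 and ahcyl1 were chosen after their values were seen. Differences went from 0.72 at 24 hpf to -0.57 at 48 hpf for tgfbi, from 0.61 to -0.56 for tcn2, from 0.47 to -0.67 for tmod4 and from 0.57 to -0.46 for mpped2. The opposite turn, from -0.45 to 0.65, was seen for ahcyl1. Their calls held under each of the 16 omissions.

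The remaining 77 probe sets met none of these rules. Of these, 14 rose by at least 1 log2 unit in wild types and reached at least 50% of that in mutants, 6 fell likewise, and 25 rose and 23 fell by under 1 log2 unit in wild types with a smaller or opposite change in mutants. Among them, scpep1 read 1.17, the ventral homeobox gene vox 1.11, the proneural gene ascl1b -0.84, the collagen col14a1a 0.75 and the retinal homeobox gene vsx1 -0.69. The calls of scpep1, col14a1a and vsx1 were lost under any of 6, 10 and 14 single omissions (adjusted p up to 0.0624, 0.0832 and 0.0874), that of col14a1a with cyclic loess (0.0534) and quantile scaling (0.0574), and that of vsx1 without the 3 arrays named above (0.0829).

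In several lists no gene passed the test for a change between the times. Of 53 ribosome biogenesis genes 24 were lower in mutants at 24 hpf (4.09% of all probe sets) and 19 at 48 hpf (6.81%), and 0 were called for the interaction in limma (3 above 0 and 0 below 0 at an unadjusted p under 0.05), with a median of 0.18. Of 44 DNA replication genes 17 and 15 were lower at those times, and 0 were called for the interaction in limma (3 higher at an unadjusted p under 0.05). The counts for mitosis (41 genes), pharyngeal arch and cartilage (36), cohesin and its regulators (13) and the Myc network (8) were 0 in limma as well. At an unadjusted p under 0.05 there were 5 higher for mitosis, 2 higher and 5 lower for pharyngeal arch and cartilage, and 0 for both other lists. Median interactions were 0.15 for mitosis, -0.17 for pharyngeal arch and cartilage, -0.27 for cohesin and its regulators and -0.18 for the Myc network. Of the 13 cohesin genes 2 fell over time in wild types (17.7% of all probe sets) and 8 in mutants (12.6%). The Myc gene myca, lower in mutants by 2.27 and 2.71 on the log2 scale, read -0.44 ± 0.23 (SE, adjusted p = 0.474). The connexin gja1b read 0.83 ± 0.22 (adjusted p = 0.075) and was called without mutant replicate 2 at 24 hpf (adjusted p = 0.0483) or mutant replicate 3 at 48 hpf (0.0426).

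**Figure D4:**
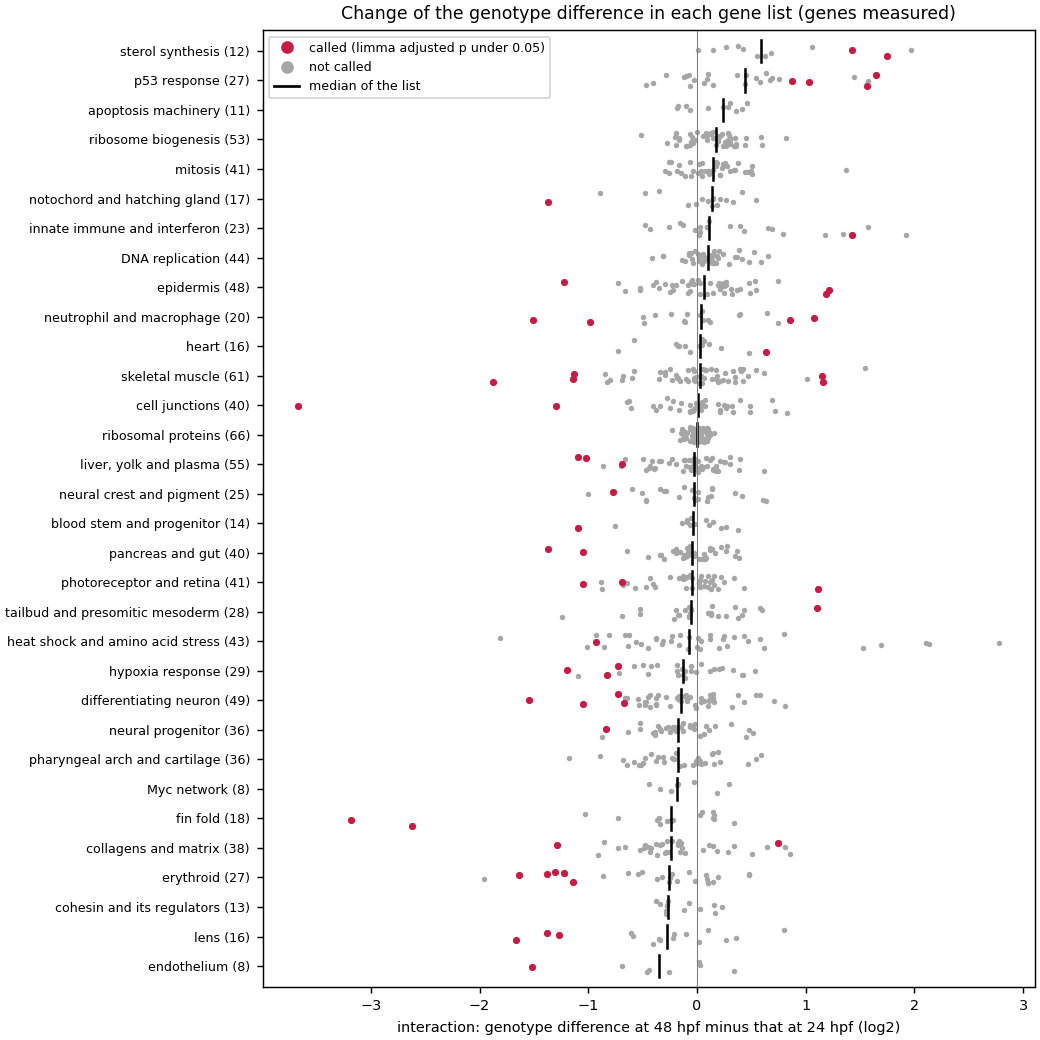
Interaction (log2) of every measured gene of 32 gene lists, 1 point per gene, with genes called by limma in red, others in grey and the list median as a black bar. Lists are ordered by their median, with sterol synthesis at 0.59 and p53 response at 0.44 at the top.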

How the data were processed

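Total RNA was column-purified and labelled by the one-cycle Affymetrix protocol, per the labels' protocols. The authors deposited normalized intensities, 1 linear value per probe set and array, with GCOS, RMA and affy named in the submitters' processing notes, and versions, background correction and filters not given in the sources used here. Values had been assumed to be log2 when the tests were laid out, and log2 was therefore taken here, with no offset. The lowest array median was an intensity of 45.5 and the highest 48.1. The number of arrays limits the precision.

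The 115 AFFX controls were left out. Platform annotation gave 1 symbol for 10795 of 15502 probe sets, several for 135 and none for 4572, and symbols were updated through gene IDs in RefSeq (GRCz12tu), where 10711 were found and 1 changed. A gene took the probe set with the highest mean. The 4 group means were fitted by limma 3.58.1 in R 4.3.3 (12 residual and 4.97 prior degrees of freedom), two-sided, with Benjamini-Hochberg adjustment over the 15502 probe sets. Adjusted p-values in the text are limma's.

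Patterns were assigned in the order failed to switch on, failed to switch off, early difference that closed, induced late, lost late, other. Named were rad21a, mdm2, myca, gja1b, and1 and and2, the 12 largest increases and decreases, up to 12 genes per pattern and up to 4 called members per list. Clone names were not eligible. The patterns, 32 gene lists and naming rule were chosen with earlier results of these data known. Alternatives were scaling, an offset of 16, a filter on dim probe sets, a trended robust prior, the replicate block, other pattern limits and the omission of each array. The omission of 3 arrays together was chosen after the data were seen. Replicate numbers were not taken as pairs. No sequences are given because no table of them was used here. The fit was tested on simulated data.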

Additional observations from a re-analysis of the deposited data

Results flagged for a closer look

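The genotype difference itself changed between 24 and 48 hpf for 225 probe sets by limma's test of the interaction. The named genes among them had the log2 interactions given here, each tested across all probe sets.

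The pattern failed to switch on includes genes with a smaller rise in mutants. In it the interaction was -3.67 for cldn11a, -3.18 for and2, -2.62 for and3, -2.38 for gsc and -2.08 for ccl25b. It was -1.92 for apoea, -1.77 for lctla, -1.74 for cox4i1l and -1.64 for cahz. The next were -1.55 for calb2a, -1.52 for plvapb, -1.52 for aspn, -1.38 for bfsp2, -1.38 for alas2, -1.37 for cpa5, -1.30 for cdh11, -1.29 for tgfbi and -1.23 for epb41b. Smaller ones were -1.22 for krt15, -1.17 for tcn2, -1.14 for tmod4, -1.13 for mb, -0.98 for mpx, -0.77 for tfap2b, -0.73 for stmn1b and -0.69 for sult1st1.

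For failure to switch off, the values were 1.43 for cfd, 1.25 for gbp1, 1.21 for krt1-19d, 1.16 for tnni2b.1, 1.15 for tnnt2c, 1.08 for rars1, 0.99 for gtsf1 and 0.65 for myl6.

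Where an early difference closed, the interaction was 1.52 for atp1a1a.2, -1.20 for pfkfb4b, 1.19 for atp1b1b, 1.16 for tmx2a, 1.09 for cygb1, 1.04 for foxi1, 0.89 for crip2, 0.84 for fibinb and -0.79 for ptprb. The next were -0.77 for pdcd4b, 0.76 for josd2, -0.74 for dixdc1a and 0.63 for has2.

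Late inductions gave 1.74 for hmgcs1, 1.74 for s100b, 1.65 for mdm2, 1.57 for phlda3, 1.43 for cyp51, 1.11 for rlbp1a, 1.08 for vrk2, 0.93 for pitpnaa and 0.87 for glb1l. The next were 0.86 for lcp1, 0.84 for cry1a and 0.79 for coro2aa.

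Late losses gave -1.09 for cxcr4b, -1.05 for isl1a, -0.93 for phgdh, -0.81 for sinhcafl, -0.79 for cited4b, -0.73 for epas1a, -0.70 for ctbp1l and -0.58 for hp1bp3.

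Genes of no such pattern gave -1.87 for atp2a1l, -1.78 for pvalb5, -1.66 for crygmxl2, -1.51 for lyz, -1.30 for nt5c2l1, -1.27 for cryba4, 1.17 for scpep1, 1.11 for vox and 1.098 for ahcyl1. The next were -1.09 for f5, 1.07 for ctsc, 1.03 for baxa, -1.02 for mpped2, -1.02 for hgd, 0.88 for bbc3, -0.84 for ascl1b, -0.82 for egln1b and 0.75 for col14a1a. Smaller ones were -0.69 for vsx1 and -0.68 for zc4h2.

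Of 64 groups of 4 arrays screened, 3 had an array far from the rest of its group by Dixon's criterion, and chance alone marks about 1 in 20. They were mutant replicate 4 at 24 hpf for atp1a1a.2 (log2 intensity 6.69), mutant replicate 3 at 48 hpf for gbp1 (7.55) and mutant replicate 2 at 24 hpf for krt1-19d (8.86).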

How the results depend on the processing

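The number of called probe sets stayed within a factor of 1.5 of 225 under each scaling, offset, filter and prior tried: 227 with cyclic loess, 238 with quantile scaling, 221 with centred medians, 236 with an offset of 16, 189 without dim probe sets, 215 with a trended robust prior and 265 without the 3 arrays least like their groups. Of these, in the same order, 202, 208, 204, 199, 180, 193 and 167 were among the 225. With the replicate block it was 286, of which 217 were among the 225. That block ended the calls of alas2 (adjusted p = 0.0633) and cygb1 (0.0562) and gave one to gja1b (0.0414). The labels do not say whether equal numbers share a source. Deviations of same-numbered arrays correlated between -0.31 and 0.43. The same-numbered array was the closest in 21 of 48 comparisons of an array with another group. Between mutants and wild types at 24 hpf, same-numbered arrays had a mean correlation of 0.20, against -0.06 for other numbers. Mutants at 48 hpf had 0.24 against -0.08 with mutants at 24 hpf, and 0.21 against -0.07 with wild types at 24 hpf. With wild types at 48 hpf, same-numbered means ran from -0.06 to -0.02, and other means from 0.006 to 0.02. Deviations were taken from the group means, so the means for other numbers largely mirror those for equal numbers and add no separate evidence. Same-numbered means were above 0 outside wild types at 48 hpf, with single correlations on both sides of 0. Whether equal numbers shared a deviation was not tested, and the main fit did not model one. The share of called probe sets above 0 was 41.8% and ranged from 33.0% to 43.0% under those settings.

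With each array left out in turn, the count ran from 125 to 231, that above 0 from 45 to 99 and that below 0 from 78 to 135. Failure to switch on ran from 48 to 77 probe sets, failure to switch off from 7 to 14, closed early differences from 10 to 29, late induction from 16 to 40 and late loss from 4 to 18. The mutant share of the wild type change ran from 67.8% to 80.8% for rising and from 61.2% to 74.1% for falling probe sets. Failure to switch off covered 32 probe sets when a wild type fall of 0.5 log2 units was enough. With a mutant share under 25% in place of 50%, 37 failed to switch on and 5 to switch off. These counts follow from the limits themselves.

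Of 87 called genes that are named, 50 kept their call under all 16 omissions and 37 lost it under at least 1, and no interaction changed sign. Under the other settings 25 named genes lost their call under at least 1. Signal near background limits what could be measured. Among the 68 probe sets that failed to switch on, 23 mutant means at 48 hpf lay below the foreign-sequence median. These mutant changes were measured only in part or not at all. Wild type means at 24 hpf lay below it for 32 of the 68, and those wild type rises were measured only in part.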

Other observations

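The largest interactions belonged to probe sets that carry no gene symbol in the platform annotation. One rose by 5.44 log2 units in wild types and by 0.42 in mutants (interaction -5.02 ± 0.17 SE, limma adjusted p = 1.04e-11), with mutants at 3.88 ± 0.17 (SD) and wild types at 8.94 ± 0.29 at 48 hpf. Another rose by 7.82 in wild types and by 3.53 in mutants (interaction -4.30 ± 0.35 SE, adjusted p = 1.98e-06). The highest interaction above 0, 2.59 ± 0.52 (SE, adjusted p = 0.0165), was likewise unnamed. Its log2 intensity was 3.197 in wild types and 5.57 in mutants at 24 hpf and 3.59 and 8.56 at 48 hpf.

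Of 66 ribosomal protein genes 0 were called for the interaction in limma (0 above 0 and 1 below 0 at an unadjusted p under 0.05). Markers of other tissues gave 1 to 3 called genes each. Over all probe sets 0.606% were called above 0 and 0.845% below 0. Called were plvapb among 8 endothelial genes, which had a median interaction of -0.35, and has2, below the background mark, among 16 heart genes. Among 38 genes of collagens and matrix (median -0.24), tgfbi was called below 0 and col14a1a above 0. Among 40 genes of cell junctions (median 0.008), cldn11a and cdh11 were called below 0 (0.845% of all probe sets). At an unadjusted p under 0.05, 4 of the 40 were above 0 and 4 below 0. Of 48 epidermal genes, krt1-19d and atp1b1b were above 0 and krt15 below 0. Photoreceptor and retina genes, 41 in number, held rlbp1a above 0 with isl1a and vsx1 below 0, and 28 tailbud genes held vox above 0.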
